A study of Mus musculus with 2 samples.

Results

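The genes described here are 47 genes of DNA replication and mitosis, of 24532 gene IDs in the count table, and they were chosen by name for their known roles in the cell cycle. They fall into 27 replication genes, which act at the entry to and during S phase, and 20 mitosis genes. All 47 had at least 10 reads in the higher library, the minimum for a gene to be called measured here, and 14885 gene IDs met it. RNA came from muscle stem cells (satellite cells, the Pax7-expressing stem cells that lie along muscle fibres) sorted from limb muscle of male C57BL/6 mice, with 1 library from wild-type (WT) and 1 from double-knockout (dKO) cells. The dKO genotype is built on Pax7-CreER, a tamoxifen-activated Cre recombinase made in Pax7-expressing cells, together with Esr2–/–, the loss of estrogen receptor beta, and a further Cre-deletable allele that is not reported here. Tamoxifen given by mouth on 5 days in a row at 3 months of age is stated for both samples, and both titles carry the mark 6M, whose meaning the labels do not give. How many mice were used for each library is not stated in the labels. With 1 library per genotype no test between the genotypes was possible, and every difference below is one between these 2 libraries.

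Adult muscle stem cells rest outside the cell cycle until injury, and in uninjured muscle few of them divide. Before S phase the origin recognition complex and its helpers Cdc6 and Cdt1 load the Mcm helicase onto DNA, a step called licensing, after which polymerases, the sliding clamp and nucleotide-making enzymes carry out synthesis. Mitosis then needs cyclin B with Cdk1, the spindle checkpoint and the motors and binding proteins of the spindle. Replication genes are known targets of E2F transcription factors. Many mitosis genes are instead known to be controlled through a short element, the cell cycle genes homology region (CHR), bound by the MuvB core of the DREAM complex and of B-Myb and FoxM1 complexes, often beside CCAAT boxes bound by NF-Y.

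The promoters of both groups held different motifs, which is a property of the genome sequence and not of these libraries. RefSeq promoters (GRCm38.p6, 250 bases before to 50 after a start site) were given for 38 of the 47 genes, 22 replication genes with 24 promoters and 16 mitosis genes with 16 promoters. The E2F site was searched as TTTCCCGC, TTTCGCGC, TTTGCCGC or TTTGGCGC, the CHR as TTTGAA or TTCGAA and the NF-Y box as CCAAT, each on both strands, and matches of different motifs that share letters were each counted. An E2F site was found in 11 of 24 replication promoters (45.8%) and in 1 of 16 mitosis promoters (6.25%), against 3.74% of the 14779 promoters of measured genes and 2.26% of all 32851 promoters. The mitosis promoter with an E2F site was that of Cdk1. A CHR was found in 13 of 16 mitosis promoters (81.2%) and in 4 of 24 replication promoters (16.7%), against 14.0% of the promoters of measured genes and 19.2% of all. NF-Y boxes were found in 14 mitosis (87.5%) and 16 replication promoters (66.7%), against 37.4% of all. A match is a description of letters and does not show that a factor binds there.

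**Figure D1:**
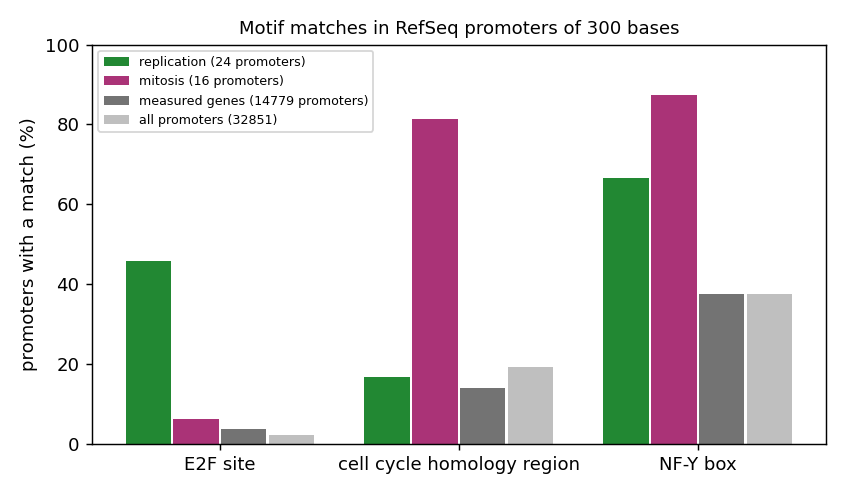
Share of RefSeq promoters of 300 bases with a match to each motif on either strand (y axis, percent), for 24 replication, 16 mitosis, 14779 measured-gene and 32851 promoters in all. E2F sites stand out in the replication promoters (45.8%) and the CHR in the mitosis promoters (81.2%).

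Of the promoters with their group's motif, 4 are shown because their genes had the highest and the lowest dKO to WT log2 ratio of their group, so that genes moving in opposite directions can be read beside the element they share. Capitals mark the E2F site in Orc1 (chr4:108579204-108579503, plus strand) and E2f2 (chr4:136172024-136172323, plus strand), and the CHR in Mki67 (chr7:135716330-135716629, minus strand) and Bub1b (chr2:118597961-118598260, plus strand), on GRCm38.p6 and 5′ to 3′ along the gene.
Orc1: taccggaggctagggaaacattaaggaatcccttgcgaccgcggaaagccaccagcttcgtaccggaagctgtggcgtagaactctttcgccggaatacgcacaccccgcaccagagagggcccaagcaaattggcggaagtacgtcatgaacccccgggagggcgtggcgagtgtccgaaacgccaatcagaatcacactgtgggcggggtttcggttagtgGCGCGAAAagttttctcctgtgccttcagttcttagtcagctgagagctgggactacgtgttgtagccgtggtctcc
E2f2: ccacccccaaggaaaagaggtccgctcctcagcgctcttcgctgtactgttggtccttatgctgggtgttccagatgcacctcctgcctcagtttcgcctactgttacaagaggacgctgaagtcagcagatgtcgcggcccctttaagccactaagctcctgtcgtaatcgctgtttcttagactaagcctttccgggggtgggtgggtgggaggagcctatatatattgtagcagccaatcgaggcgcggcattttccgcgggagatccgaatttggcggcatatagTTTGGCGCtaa
Mki67: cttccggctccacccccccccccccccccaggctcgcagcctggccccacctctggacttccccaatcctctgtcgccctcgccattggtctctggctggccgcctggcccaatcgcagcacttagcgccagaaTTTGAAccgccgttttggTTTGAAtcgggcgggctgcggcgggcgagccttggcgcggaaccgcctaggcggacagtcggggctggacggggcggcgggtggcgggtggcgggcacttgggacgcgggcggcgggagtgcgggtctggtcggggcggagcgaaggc
Bub1b: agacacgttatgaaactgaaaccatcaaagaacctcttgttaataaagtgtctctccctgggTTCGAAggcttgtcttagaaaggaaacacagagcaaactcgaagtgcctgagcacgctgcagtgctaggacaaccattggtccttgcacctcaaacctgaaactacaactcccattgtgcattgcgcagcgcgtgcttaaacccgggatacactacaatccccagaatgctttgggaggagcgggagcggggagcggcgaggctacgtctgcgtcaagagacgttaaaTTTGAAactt
The E2F site of Orc1 began 27 bases before the start site and that of E2f2 at base 40 after it. A second E2f2 promoter (chr4:136180532-136180831, not shown) held 0 E2F sites and 1 CHR match. Mki67 held 2 CHR matches, 116 and 98 bases before the start, with 3 NF-Y boxes further upstream. Bub1b held 2 CHR matches, 188 bases before and at base 41 after the start, and 1 NF-Y box. Orc1 (log2 ratio 0.51) and E2f2 (−0.87) stood on opposite sides of 0 with an E2F site each, as did Mki67 (0.79) and Bub1b (−0.52) with a CHR each. These opposite signs follow from picking the highest and the lowest ratio of groups that span 0. Whether the element bears on the direction was not tested.

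Depth was 36636680 reads for WT and 43699831 for dKO. Values are CPM, the counts per mega-read of a library size scaled by TMM (a trimmed mean of log ratios across genes), and the log2 ratio is that of dKO CPM + 1 over WT CPM + 1. The scaled sizes were nearly equal (40005777 and 40019638), so counts of both libraries can be read against each other directly. A fold is the plain ratio of CPM, with an exact 95% interval that covers counting error only. Muscle stem cell markers were abundant in both libraries, with 7620 to 119223 counts for the 12 markers in WT and 5365 to 194985 in dKO. Counts of Pax7 itself were 22335 and 12620, the lowest log2 ratio of the 12 (−0.82). Of the 12 markers 4 were above 0 and 8 below, with a median log2 ratio of −0.05. Their summed CPM was 9212 in WT and 11103 in dKO, of which Sdc4 alone made up 2980 in WT and 4872 in dKO. Genes listed as endothelial, immune or fibro-adipogenic progenitor markers were present in both libraries, none at 0. All 12 endothelial and all 12 immune markers and 6 of 8 fibro-adipogenic progenitor markers were lower in dKO, whereas Col3a1 (35896 and 36435 counts) and Cd34 (18926 and 19292) were not. Counts of Col3a1 and Cd34 lay within the range of the stem cell markers, and which cells they came from was not tested. The summed CPM of the endothelial markers was 647 in WT and 289 in dKO, that of the immune markers 198 and 58.6, and that of the progenitor markers 2475 and 2000. Of the progenitor sum, Col3a1 made up 897 in WT and 910 in dKO, and Cd34 473 and 482. The immune marker Ptprc (CD45) had 200 and 17 counts. What share of the replication and mitosis RNA came from such cells was not tested. A different number of cycling cells and a different amount of this RNA per cell cannot be told apart.

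By the 2-fold rule and the list medians, replication and mitosis genes differed little between the libraries, but not by every measure below. Single genes of the same complex or pathway stood on opposite sides, and how often other gene sets do so was not tested. By the 2-fold rule on the log2 ratio, 1 member was higher in dKO (2.13% of the 47, against 1.92% of all measured genes) and 1 was lower (2.13% against 4.30%), which is near the background or below it. The higher one was Rrm1, a subunit of ribonucleotide reductase, and the lower one was Nusap1, a spindle protein. At 1.5-fold on the same scale, 8 members were higher (17.0% against 8.98%) and 4 were lower (8.51% against 13.1%). A log2 ratio above 0 was found for 29 members (61.7%), against 47.6% of all measured genes. The median log2 ratio was 0.09 for the replication genes and 0.07 for the mitosis genes, beside −0.02 for all measured genes, and both list medians turned negative under library totals alone (−0.16 and −0.06).

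Those medians hide a wide spread in both groups, from −0.87 (E2f2) to 1.05 (Rrm1) among the replication genes and from −1.09 (Nusap1) to 0.79 (Mki67) among the mitosis genes. The 95% counting interval of the fold lay above 1 for 10 of 27 replication genes, below 1 for 6 and included 1 for 11. For the 20 mitosis genes these numbers were 5, 4 and 11. Among all measured genes the interval lay above 1 for 34.9% and below 1 for 37.8%, beside 37.0% and 22.2% of the replication genes and 25% and 20% of the mitosis genes. An interval that leaves out 1 says that the counts of these 2 libraries differed by more than counting error, not that the genotypes differ.

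**Figure D2:**
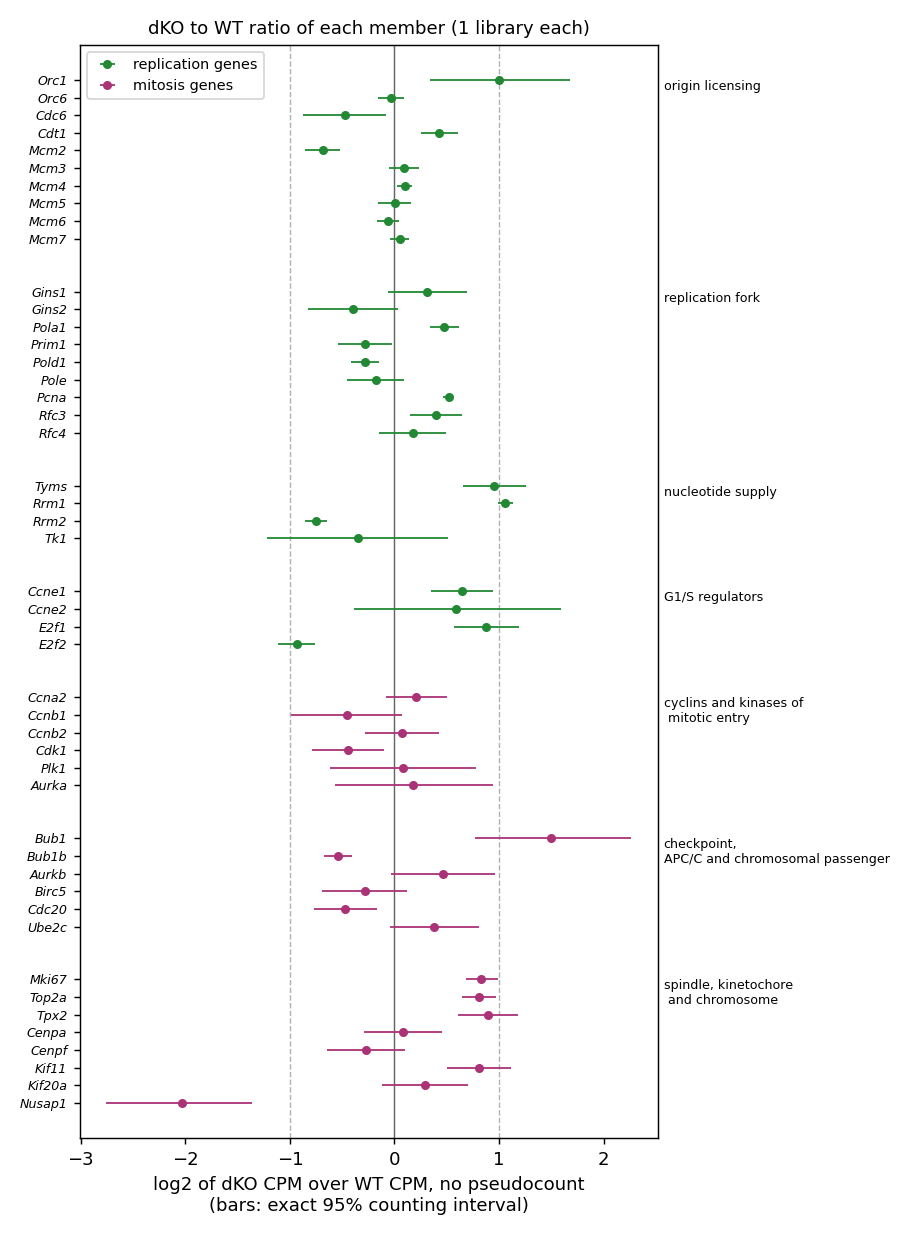
Ratio of dKO over WT CPM on a log2 axis (x, no pseudocount) for each of the 47 members, grouped by role, with bars for the exact 95% counting interval and dashed lines at 2-fold. Replication (green) and mitosis genes (purple) both lie on either side of 0, with Nusap1 at the far left (23 against 94 counts) and Bub1 at the far right (62 against 22 counts).

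Levels between genes can be compared only per length, and for this each count was divided by the transcript length and the scaled library size (RPKM, reads per kilobase per mega-read). Replication genes were the more abundant group, with a median RPKM of 4.44 in WT and 3.65 in dKO, against 1.14 and 1.37 for mitosis genes. Summed over the group, replication genes had 8.09 times the RPKM of mitosis genes in WT and 9.46 times in dKO. Much of that sum was Pcna, with 36.9% of it in WT and 44.2% in dKO. The order by RPKM was led in WT by Pcna (97.0), Mcm4 (21.7), Rrm2 (21.5) and Mcm7 (19.4), and in dKO by Pcna (139), Rrm1 (28.5), Mcm4 (23.2) and Mcm7 (20.0). At the other end stood Bub1 (0.127) and Ccne2 (0.128) in WT, which rested on 22 and 16 reads. Pcna lay at the 96.0th percentile of all measured genes in WT, while Mki67, the usual marker of cycling cells, lay at the 24.7th in WT and the 35.4th in dKO. Together the 47 genes made up 0.0748% of all reads in WT and 0.0731% in dKO, by the unscaled totals. By the scaled sizes their summed CPM was 685 in WT and 798 in dKO, a ratio of 1.16 (1.15 to 1.18). For the replication genes without Pcna and Rrm1 the summed CPM was 406 and 392.

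**Figure D3:**
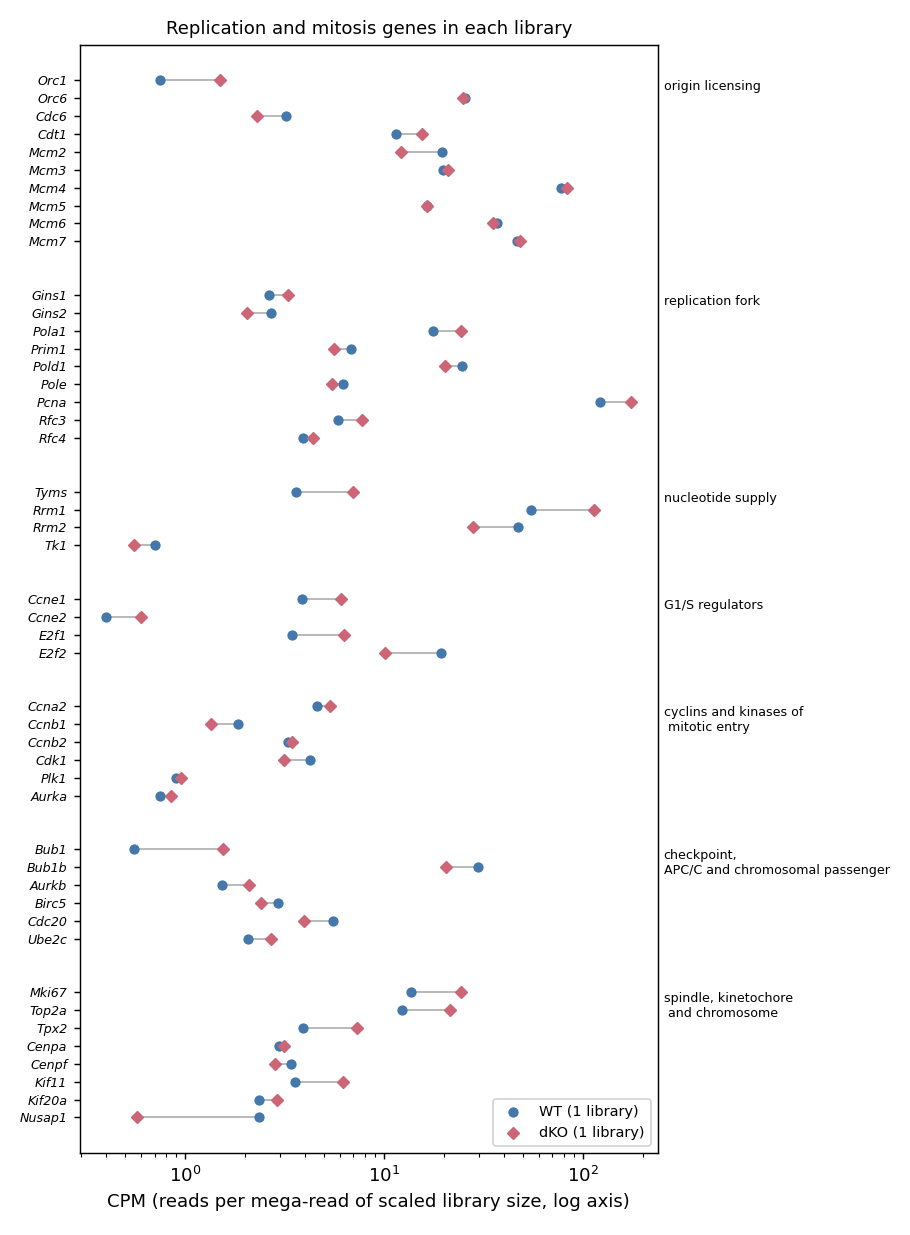
CPM of the 47 members on a log axis, grouped by role, with 1 circle for the WT and 1 diamond for the dKO library. Values run from 0.40 CPM (Ccne2 in WT) to 175 CPM (Pcna in dKO), and the replication genes reach higher levels than the mitosis genes, of which Bub1b is the highest (29.6 CPM in WT).

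Of the 10 origin licensing genes, 5 of the 6 helicase subunits were close in level between the libraries. The 6 genes of the Mcm2 to Mcm7 helicase, a ring of 1 copy of each subunit, had a summed CPM of 217 in WT and 216 in dKO. Mcm4 had 3114 and 3331 counts, Mcm7 1856 and 1922, Mcm6 1478 and 1415, Mcm3 787 and 838, and Mcm5 659 and 660 in WT and dKO. The folds of these 5 ran from 0.957 to 1.07, all within a narrow band around 1. Mcm2 alone of the ring stood apart, with 780 counts in WT and 485 in dKO, which is 1.61-fold lower (1.43 to 1.81). Set against Mcm3, a neighbour in level in WT, the ratio of Mcm3 to Mcm2 RPKM was 1.18 in WT and 2.02 in dKO, a pair picked after the values were seen.

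Among the loaders of the helicase, Cdt1 had 459 and 618 counts and was 1.35-fold higher (1.19 to 1.52), while Cdc6 had 128 and 92 and was 1.39-fold lower (1.06 to 1.84). With the trend of the log2 ratio on abundance and length across all genes removed, the log2 ratio of Cdc6 went from −0.35 to 0.0027, so that its direction was lost. Orc6, a subunit of the origin recognition complex, was equal within counting error with 1022 and 999 counts. Orc1, its largest subunit, was rare, with 30 reads in WT and 60 in dKO, and its fold of 1.999 had a wide interval (1.27 to 3.21). The pseudocount of 1 CPM brings its log2 ratio to 0.51, so that Orc1 was not 2-fold apart by the rule used. Of these 10 licensing genes 6 were above 0, against 47.6% of all measured genes, and the list median was 0.03.

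Replication fork genes were led by Pcna, the sliding clamp that holds polymerases on DNA. Its counts were 4887 in WT and 7007 in dKO (122 and 175 CPM), which is 1.43-fold higher (1.38 to 1.49). With that trend removed, its log2 ratio of 0.52 became 0.10. The clamp loader subunit Rfc3 was also higher (235 and 309 counts, 1.31-fold, 1.11 to 1.56), and Rfc4 was within counting error (156 and 176 counts).

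The replicative polymerases went separate ways. Pola1, the catalytic subunit of polymerase alpha, which starts new strands, had 702 and 978 counts and was 1.39-fold higher (1.26 to 1.54). Its partner Prim1, the primase that makes the RNA primer, had 272 and 224 counts and was 1.22-fold lower (1.014 to 1.46). Pold1 of the lagging-strand polymerase delta had 987 and 813 counts and was 1.21-fold lower (1.11 to 1.33). Pole of the leading-strand polymerase epsilon had 247 and 218 counts, and its interval included 1. For the GINS subunits, which join Mcm2 to Mcm7 in the active helicase, Gins1 had 106 and 132 counts and Gins2 108 and 82, and both intervals included 1. Of the 9 fork genes 5 were above 0, against 47.6% of all measured genes, with a median log2 ratio of 0.14.

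Nucleotide supply held the replication gene with the highest log2 ratio, Rrm1, and the subunits of its enzyme differed in opposite directions. Ribonucleotide reductase makes deoxynucleotides and is built of a large subunit, Rrm1, and a small one, Rrm2, whose supply is known to be limited to dividing cells. In WT Rrm1 had 2187 counts and in dKO 4560 (54.7 and 113.9 CPM), which is 2.08-fold more (1.98 to 2.19). Rrm2 had 1878 and 1118 counts (46.9 and 27.9 CPM) and was 1.68-fold lower (1.56 to 1.81). The RPKM of Rrm1 over that of Rrm2 was thus 0.635 in WT and 2.23 in dKO, and the ratio of their counts differed 3.50-fold (exact conditional 95% interval 3.20 to 3.84). This pair, like E2f1 with E2f2 below, was picked after the values were seen.

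Tyms, thymidylate synthase, had 144 and 279 counts and was 1.94-fold higher (1.58 to 2.38). Tk1, the salvage thymidine kinase, was barely detected, with 28 and 22 counts and an interval of 0.428 to 1.42. So of the 4 nucleotide genes, Rrm1 and Tyms were higher, Rrm2 was lower, and for Tk1 no difference was detectable at this depth.

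G1/S regulators were also split. E2f1, an activator E2F that drives S-phase genes, went from 137 counts in WT to 252 in dKO, 1.84-fold higher (1.49 to 2.28). E2f2, another activator, had 769 and 402 counts and was 1.91-fold lower (1.69 to 2.16). In WT E2f2 was the more abundant of them per length (RPKM 3.97 against 1.25), and in dKO they were about equal (2.07 and 2.31). The count ratio of E2f1 to E2f2 differed 3.52-fold (2.75 to 4.51). Ccne1, a cyclin that activates Cdk2 at the start of S phase, had 155 and 242 counts and was 1.56-fold higher (1.27 to 1.92). Ccne2, its paralogue, had 16 and 24 counts, too few for a difference of that size to be seen (interval 0.764 to 3.02).

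Genes of mitotic entry were low in both libraries, and for 5 of 6 the interval of the fold included 1. Ccna2, cyclin A2, had 184 and 213 counts, Ccnb2 131 and 138, and Ccnb1 74 and 54. Cdk1, the kinase that these cyclins activate, had 170 and 125 counts and was 1.36-fold lower (1.07 to 1.73), and its log2 ratio of −0.35 became −0.10 with the trend on abundance and length removed. The mitotic kinases Plk1 (36 and 38 counts) and Aurka (30 and 34) were near the lower end of detection, with intervals of 0.651 to 1.71 and 0.673 to 1.92. Summed over these 6 genes, CPM was 15.6 in WT and 15.0 in dKO.

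The spindle checkpoint kinases again differed in direction. Bub1b (BubR1), the most abundant mitosis gene per length (RPKM 8.07 in WT and 5.55 in dKO), had 1185 and 815 counts and was 1.45-fold lower (1.33 to 1.59). Its relative Bub1 had only 22 and 62 counts and was 2.82-fold higher (1.71 to 4.81), which the pseudocount brings to a log2 ratio of 0.72. Cdc20, which activates the anaphase-promoting complex once the checkpoint is satisfied, had 220 and 159 counts and was 1.38-fold lower (1.12 to 1.71). The intervals of Ube2c, the ubiquitin-conjugating enzyme of that complex (83 and 108 counts), of Aurkb, the chromosomal passenger kinase (61 and 84), and of Birc5, the passenger subunit survivin (117 and 96), all included 1. Without Bub1b, the other 5 genes of this list had at most 220 counts in either library.

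Spindle, kinetochore and chromosome genes held 4 of the 8 members that were at least 1.5-fold higher by the log2 ratio with its pseudocount. Mki67, which coats mitotic chromosomes and marks cycling cells, counted 548 reads in WT and 976 in dKO, 1.78-fold higher (1.60 to 1.98). Top2a, the topoisomerase that untangles sister DNA, had 489 and 857 counts and was 1.75-fold higher (1.57 to 1.96). Kif11, the motor that pushes spindle poles apart, had 142 and 248 counts and was 1.75-fold higher (1.41 to 2.16). Tpx2, a spindle assembly factor that activates Aurora A, had 157 and 292 counts and was 1.86-fold higher (1.53 to 2.27). These 4 genes had folds within 1.75 to 1.86.

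The other 4 genes of that list did not follow them. Cenpa, the histone variant of centromeres, had 119 and 126 counts, Cenpf, a large kinetochore protein, 136 and 113, and Kif20a, a motor of cell division, 94 and 115, all with intervals that included 1. Nusap1, which binds and bundles spindle microtubules, counted 94 reads in WT and 23 in dKO (2.35 and 0.575 CPM) and was 4.09-fold lower (2.57 to 6.76), the widest gap of any member.

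For 17 of the 47 genes the table lists several transcript rows, and a sum can hide differences between rows. Of the 11 with at least 2 rows of 10 or more reads over both libraries, 7 had rows on both sides of 0, against 66.3% of 3942 such genes in the whole table. A row past 2-fold was found in 5 of the 11, against 51.6% of those genes, so neither share sets the 47 apart. Mcm5 is the clearest case: its row of 3441 bases had 651 counts in WT and 312 in dKO, its row of 3417 bases 8 and 348, and the sum was equal. The shorter row held 1.21% of the reads of the gene in WT and 52.7% in dKO. Kif20a had 94 and 26 counts in a row of 3473 bases and 0 and 89 in a row of 3577 bases. Tpx2 had 4 rows with reads: 108 and 48 counts at 4365 bases, 49 and 0 at 4161, 0 and 199 at 4177 and 0 and 45 at 4164. E2f1 had all 137 of its WT reads in a row of 2739 bases, with 201 there and 51 in a row of 2695 bases in dKO. Nusap1 had 46 and 23 counts at 2960 bases and 48 and 0 at 2861, both lower in dKO. By the row of highest share alone, log2 ratios were 2.58 for Tpx2, −1.03 for Kif20a, −0.98 for Mcm5 and −0.45 for Nusap1, so the member 2-fold lower was then Kif20a in place of Nusap1. The rule that assigned reads to rows is not stated, so row values are the division made by that rule, and whether transcript use differed was not tested.

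**Figure D4:**
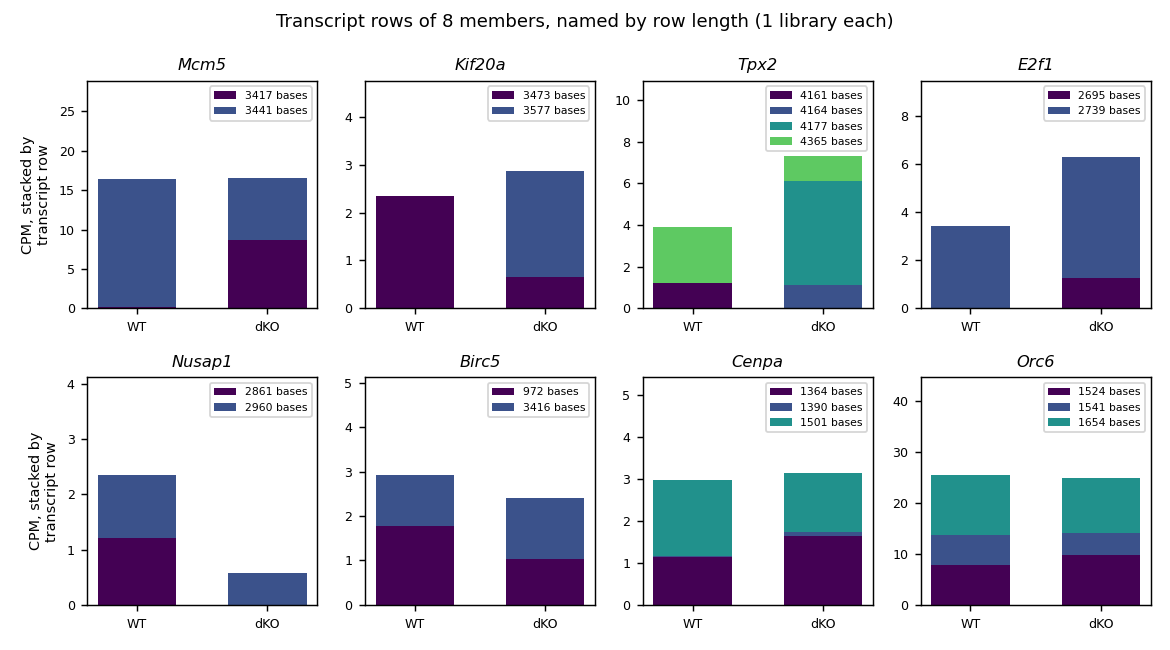
CPM of 8 members stacked by transcript row (colours, named by row length in bases) in the WT and the dKO library. In Mcm5 the stacks are equally high but the shorter row grows from 1.21% to 52.7% of the reads, while in Nusap1 both rows are lower in dKO.

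Other cell cycle genes, which are not among the 47, had list medians near 0 with few genes past 2-fold in either direction. Of 34 other replication genes, 0 were 2-fold higher and 2 were lower, against 1.92% and 4.30% of all measured genes. Above 0 were 16 of them, against 47.6% of all measured genes. Their median log2 ratio was −0.08, and it was −0.31 under library totals, 0.06 by the row of highest share and 0.07 with the trend removed. The lower ones were Orc5 (322 and 107 counts, log2 ratio −1.30), an origin recognition subunit, and Gmnn (60 and 8 counts, −1.06), the gene of geminin, which blocks Cdt1. The most abundant of the list per length was Slbp, the histone mRNA binding protein (RPKM 20.0 and 26.4). Of 45 other mitosis genes, 2 were higher by 2-fold and 1 was lower, and 25 were above 0, beside the same shares of measured genes. The median of this list was 0.11 (−0.07 under library totals). Ect2, which acts in cytokinesis (46 and 168 counts, 1.27), and Ndc80, a kinetochore subunit (18 and 79 counts, 1.04), were higher, and Aspm, a spindle pole protein (162 and 42 counts, −1.30), was lower. Per length, Pttg1 (securin) led that list (RPKM 28.1 and 40.2).

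Genes that control entry into the cycle form 2 further lists. G1 cyclins and kinases had a median of 0.02 (−0.20 under library totals, and −0.21 once the trend was removed). Of these 11 genes 0 were past 2-fold in either direction, against 1.92% of all measured genes higher and 4.30% lower. Ccnd3, cyclin D3, was the highest of the list (RPKM 101 and 108). Cell cycle inhibitors and pocket proteins had a median of 0.08 (−0.15 under library totals and −0.20 by the row of highest share). By 2-fold, 0 of 19 were higher and 1 was lower, against the same shares of all measured genes. The lower one was the mitosis-delaying kinase gene Wee1 (1872 and 909 counts, log2 ratio −1.01). The most abundant gene of this list was Cdkn1a, which encodes the Cdk inhibitor p21, with 14689 and 23103 counts (RPKM 192 and 302). It was 1.57-fold higher in dKO (1.54 to 1.61) and per length stood above each of the 47 in both libraries.

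**Figure D5:**
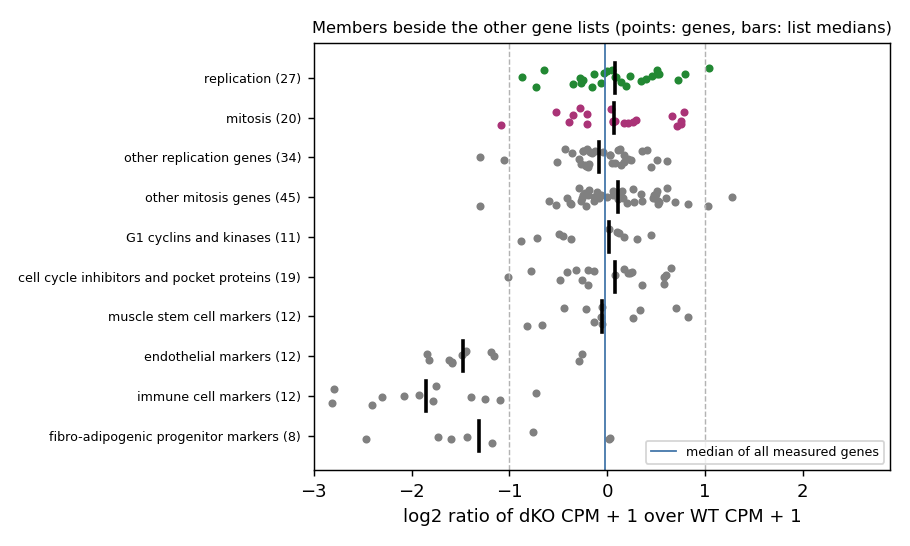
Log2 ratio of dKO CPM + 1 over WT CPM + 1 (x axis) for the genes of each list (points), with list medians (black bars), the median of all measured genes (blue line) and dashed lines at 2-fold. Replication (0.09) and mitosis genes (0.07) centre near 0 (−0.16 and −0.06 under library totals), whereas endothelial (−1.47), immune (−1.86) and fibro-adipogenic progenitor markers (−1.31) lie to the left.

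A change of scaling shifts all genes in the same direction by a similar amount, less at low CPM, so it can move the centre but hardly the spread. Only members near 0 can change sign by it. Under library totals alone the median of all measured genes moved by −0.22, the medians became −0.16 for replication and −0.06 for mitosis genes, and 19 of the 47 (40.4%) were above 0, beside 30.3% of all measured genes. The members whose sign turned were Mcm3, Mcm4, Mcm5, Mcm7, Rfc4, Ccna2, Ccnb2, Plk1, Aurka and Cenpa, each of which had a log2 ratio of at most 0.18 under TMM. Rrm1, Tyms, E2f1, Bub1, Mki67, Top2a, Tpx2 and Kif11 stayed above 0 and Mcm2, Rrm2, E2f2, Bub1b and Nusap1 stayed below 0 under that scaling. Rrm1 was then at 0.80, short of 2-fold, and E2f2 at −1.11 passed it beside Nusap1 (−1.22). With the trend on abundance and length removed, the medians were 0.14 and 0.29, and the sign turned for Cdc6, Mcm4, Mcm7, Pole and Cenpf. The genes past 2-fold were then Mki67 (1.14), Tyms (1.08), Tpx2 (1.06), Bub1 (1.05) and Kif11 (1.004), all higher, or 10.6% of the 47, against 2.06% of measured genes higher and 2.88% lower in that setting. Rrm1 was then at 0.94 and Nusap1 at −0.83, inside the 2-fold lines.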

How the data were processed

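Per the file headers, the deposited table gives a read count and a length for each transcript row, and the values are whole numbers. TopHat2 2.0.9, bedtools, edgeR and mm10 are named, without role, per the submitters' processing notes; how reads were counted, and with which annotation and strand setting, is not stated, so overlapping or near-identical genes may share reads. Rows of a gene ID (36780 rows, 24532 IDs) were summed, with symbols from RefSeq genes on GRCm38.p6. Members and lists were chosen with earlier results of these data known.

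Scaling was by TMM in edgeR 4.0.16 (R 4.3.3), with factors of 1.09 for WT and 0.916 for dKO. Log2 ratios used a pseudocount of 1 CPM. Intervals of folds were exact conditional binomial (Clopper-Pearson, SciPy 1.17.1) and cover counting error only, because 1 library per genotype gives no measure of variation between mice. They take each read as a separate molecule, which PCR copies are not, and so may be too narrow. The steps were tested on simulated data. Each member is named, and of other lists the genes 2-fold apart with at least 50 counts (at most 4) and the one of highest RPKM, besides the sort markers Pax7 and Ptprc. Alternatives were DESeq2 1.42.0 median-ratio scaling, library totals, the row of highest share, per-length sums, pseudocounts of 0.1 and 5, no count minimum or 100, 1.5-fold and 4-fold rules, list means and removal of a cubic trend on abundance and length; members with 1 row only were added after seeing the data.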

Additional observations from a re-analysis of the deposited data

How the results depend on the processing

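The replication median of 0.09 was −0.16 under library totals and ran from 0.05 to 0.14 under the other settings. The mitosis median of 0.07 was −0.06 under library totals and ran from 0.03 to 0.29 otherwise, with 0.29 after removal of the trend on abundance and length. Replication genes above 0 went from 16 to 11 and mitosis genes above 0 from 13 to 8 under library totals. All fold rules here apply to the log2 ratio with its pseudocount, so that Nusap1, 4.09-fold lower by plain CPM, is not past 4-fold. The 1 member 2-fold higher became 0 under library totals, 2 by the row of highest share, 2 with a pseudocount of 0.1, 0 with a pseudocount of 5, 5 with the trend removed, 8 at 1.5-fold and 0 at 4-fold. The 1 member 2-fold lower became 2 under library totals, 0 with a pseudocount of 5, 0 with a minimum of 100 counts, 0 with the trend removed, 4 at 1.5-fold and 0 at 4-fold. The cause was not tested, except that stricter folds, a larger pseudocount and a higher minimum call fewer genes by construction. Signs turned for 10 members under library totals, 5 with the trend removed and 3 by the row of highest share, and for 0 under median-ratio scaling, per-length sums or other pseudocounts. No paired analysis was possible because each genotype has 1 library. Depth limits the 9 members with under 100 counts in both libraries, for which only folds outside wide intervals could be seen.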
